A study of Arabidopsis thaliana with 24 samples.

Results

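The 63 genes described here had lower RNA in cadmium-treated roots than in untreated roots of both wild-type (WT) Arabidopsis and the oas-a1.1 mutant. They were chosen by the measured values: the mean log2 value of cadmium-treated roots had to lie at least 0.8 below that of untreated roots in each genotype (a difference of -0.8 or less), and every treated array had to read below every untreated array of the same genotype. Of 13513 probe sets (groups of short probes for one transcript) with a single gene, 65 met these values; COR27 and AT4G33980 were left out by name, and no gene with a symbol starting UGT, CYP, TBL or EXP, nor LTI30, met them. The same conditions in WT alone were met by 282 probe sets and in oas-a1.1 alone by 163. Because root cadmium differences chose the genes, these differences are given as a description with no test, and tests are given for the shoots and for the genotype effect averaged over both root treatments.

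RNA from hydroponically grown plants was measured on 24 Affymetrix ATH1 arrays in 8 groups of 3 labelled biological replicates. The groups were untreated and cadmium chloride-treated roots and shoots of accession Col-0 (WT) and of oas-a1.1, a mutant from line SALK_072213; roots were taken after 18 h of cadmium and shoots after 24 h. The added cadmium chloride is 50 µM in the series' design and 50 mM in the sample protocols, which the sources used here do not settle. The mutant is a single insertion line, no complemented line was analysed here, and the mutated gene itself was not analysed here. OASA1 is known as a cytosolic O-acetylserine(thiol)lyase, an enzyme that makes cysteine, from which plants build glutathione and the cadmium-binding phytochelatins. Values are log2 on the deposited scale, so that a difference of -1 is a halving.

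The root arrays carried the root marker PYK10, a root beta-glucosidase, at 11.86 to 12.85, against 4.19 to 4.67 in the shoot arrays. The leaf marker RCA, Rubisco activase, read 12.30 to 12.88 in shoots and 6.03 to 7.77 in roots. RCA was higher by 1.24 in cadmium-treated WT roots (limma adjusted p = 0.0455) and by 0.36 in oas-a1.1 roots (adjusted p = 0.79), and its part in the member values was not tested. The root hair expansins EXPA7 and EXPA18 did not pass the test in roots of either genotype; other marker genes fixed for root cell types were not analysed here. A 25S ribosomal RNA control read below 7 on 8 of the 24 arrays and between 7.72 and 11.96 on the others. In roots the low arrays were replicate 1 of cadmium-treated WT and of both oas-a1.1 groups.

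The wall of a plant cell is loosened and stiffened by secreted proteins. Expansin-like proteins resemble wall-loosening expansins, pectin methylesterase inhibitors set how far pectin is de-esterified, class III peroxidases oxidise wall phenolics with hydrogen peroxide, dirigent proteins steer the coupling of phenolic radicals, and caffeoyl-CoA O-methyltransferases act on the lignin precursor pathway. Plant defensins are small secreted cysteine-rich peptides. In the annotation used, 9 members carry a symbol and 54 carry only a locus tag; family names for the latter are general knowledge of the Arabidopsis genome, not taken from the files, and the groups by family were formed after the values were seen. Of these 54, 26 are left in a group with other or no family. In bulk roots, fewer cells of a type and less RNA per cell cannot be told apart.

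Across the 63 genes the median difference in roots was -1.29 in WT, with a range from -4.47 to -0.81, and -1.16 in oas-a1.1, with a range from -2.60 to -0.82. The median over all single-gene probe sets was 0.02 in WT and -0.02 in oas-a1.1. A difference of -1 or less was reached by 47 members in WT, 49 in oas-a1.1 and 38 in both. The mean over the members was 7.98 to 8.20 on the 3 untreated WT root arrays and 6.56 to 6.80 on the 3 treated ones, and 7.88 to 8.13 against 6.49 to 6.77 in oas-a1.1. In the limma fit of roots, 2.27% of all probe sets were lower with cadmium in WT, among them 47 members, and 1.81% in oas-a1.1, among them 44 members; since the rule used these contrasts, nothing is read from the counts.

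**Figure D1:**
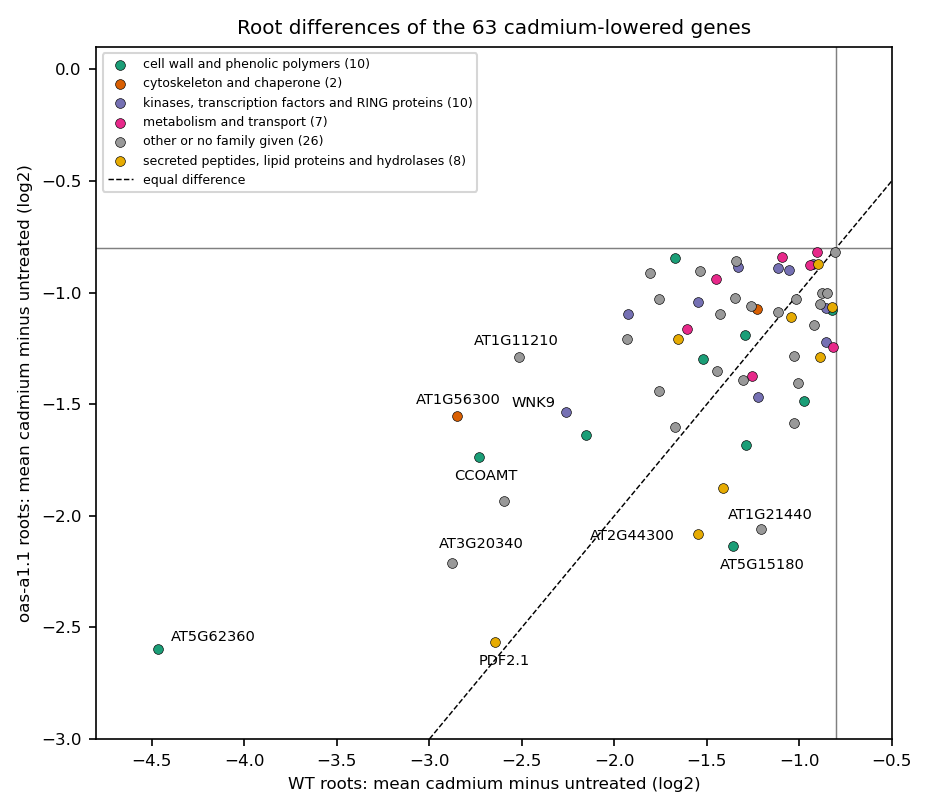
Each point is one of the 63 genes, placed by its mean cadmium minus untreated difference (log2) in WT roots (x axis) and oas-a1.1 roots (y axis) and coloured by family group, with grey lines at -0.8 and a dashed line of equal difference. AT5G62360 lies farthest out at -4.47 in WT, PDF2.1 sits on the dashed line, and AT5G15180 and AT1G21440 lie below it, with the larger difference in oas-a1.1.

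Among the wall and phenolic genes, AT5G62360, of the invertase and pectin methylesterase inhibitor family, had the largest root difference. It read 9.28, 9.46 and 9.06 in untreated WT roots and 5.03, 4.53 and 4.84 after cadmium. In oas-a1.1 it read 7.77, 8.56 and 7.79 untreated and 6.16, 5.25 and 4.92 treated. Treated oas-a1.1 roots read 0.64 above treated WT roots, and untreated mutant roots read 1.23 below untreated WT roots. Its mean in treated WT roots, 4.80, was below the median of all probe sets there, 5.38, as were the means of 17 members in all; in treated oas-a1.1 roots 12 members were below that median, 5.37. How far such low readings follow the RNA level was not tested.

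EXLA1, an expansin-like protein, read 8.35, 8.16 and 7.64 in untreated WT roots against 5.83, 5.58 and 6.28 with cadmium, a difference of -2.15. In oas-a1.1 roots its readings were 7.48, 7.80 and 8.95 against 6.62, 6.35 and 6.34, a difference of -1.64. CCOAMT, annotated as a caffeoyl-CoA O-methyltransferase, read 8.77, 8.53 and 7.69 in untreated WT roots and 5.52, 5.15 and 6.13 in treated ones. In oas-a1.1 it went from 8.13, 8.37 and 8.34 to 6.41, 7.68 and 5.54, and these 3 treated mutant arrays spread over more than 2 log2 units. The groups did not overlap for either gene, as the rule required.

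The set holds 4 class III peroxidase genes. AT5G15180 read 10.11, 9.83 and 9.31 in untreated and 8.93, 8.37 and 7.87 in treated WT roots, and 9.85, 9.33 and 9.68 against 7.81, 7.75 and 6.89 in oas-a1.1. Its difference was -1.36 in WT and -2.14 in the mutant, the second-largest excess of the mutant over WT in the set. AT4G26010 had differences of -1.29 and -1.68, AT1G44970 of -1.52 and -1.30, and AT2G37130 of -1.67 and -0.84. The dirigent-family genes AT4G13580 and AT2G39430 had differences of -0.97 and -0.82 in WT and -1.49 and -1.08 in oas-a1.1. AT3G12900, of the 2-oxoglutarate-dependent dioxygenase family, had differences of -1.29 and -1.19. Over the 10 members of this group the median was -1.44 in WT and -1.56 in oas-a1.1.

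Both defensins in the set come from one stretch of chromosome 2, where a single protein-coding gene lies between LCR69 and PDF2.1 in assembly TAIR10.1. PDF2.1 read 6.85, 7.19 and 7.25 in untreated WT roots and 4.30, 4.34 and 4.72 with cadmium. In oas-a1.1 it read 7.52, 6.26 and 6.61 against 4.19, 4.33 and 4.17, and the differences were -2.64 in WT and -2.57 in oas-a1.1. LCR69, also named PDF2.2, read 10.14, 10.26 and 10.56 against 8.56, 8.48 and 8.96 in WT roots and so still read 8.48 or above with cadmium; its differences were -1.65 in WT and -1.21 in oas-a1.1. The root calls of both follow from how the members were chosen. Of the 13 other named defensin and related cysteine-rich peptide probe sets, 0 were called in roots of either genotype, and their median difference was 0.09 in WT and 0.03 in oas-a1.1. In shoots, 0 of the 13 were called lower and 2 higher in each genotype; the higher ones, PDF1.2 and PDF1.2b, rose by 1.65 and 1.55 in WT (adjusted p = 0.0452 and 0.0316) and by 2.56 and 2.47 in oas-a1.1 (adjusted p = 0.0101 and 0.00605). LCR68, another peptide of that list, had differences of -0.48 and -0.83 (adjusted p = 0.323 and 0.0519).

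The other secreted or lipid-related members include AT2G44300, of the lipid-transfer protein family, with 6.54, 6.14 and 6.12 against 4.99, 4.48 and 4.69 in WT roots and 6.53, 6.92 and 7.60 against 5.24, 4.71 and 4.86 in oas-a1.1. AT1G29670, a GDSL lipase gene, read 6.33, 5.83 and 5.89 against 4.75, 4.65 and 4.41 in WT roots and 6.42, 7.10 and 5.54 against 4.66, 4.37 and 4.41 in oas-a1.1. Both had the larger difference in the mutant, by 0.53 and 0.46. SCPL49, a serine carboxypeptidase-like protein, had differences of -1.04 and -1.11, and BGLU16, a beta-glucosidase, of -0.90 and -0.87. AT1G09750, an aspartyl protease gene, had -0.82 and -1.07.

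**Figure D2:**
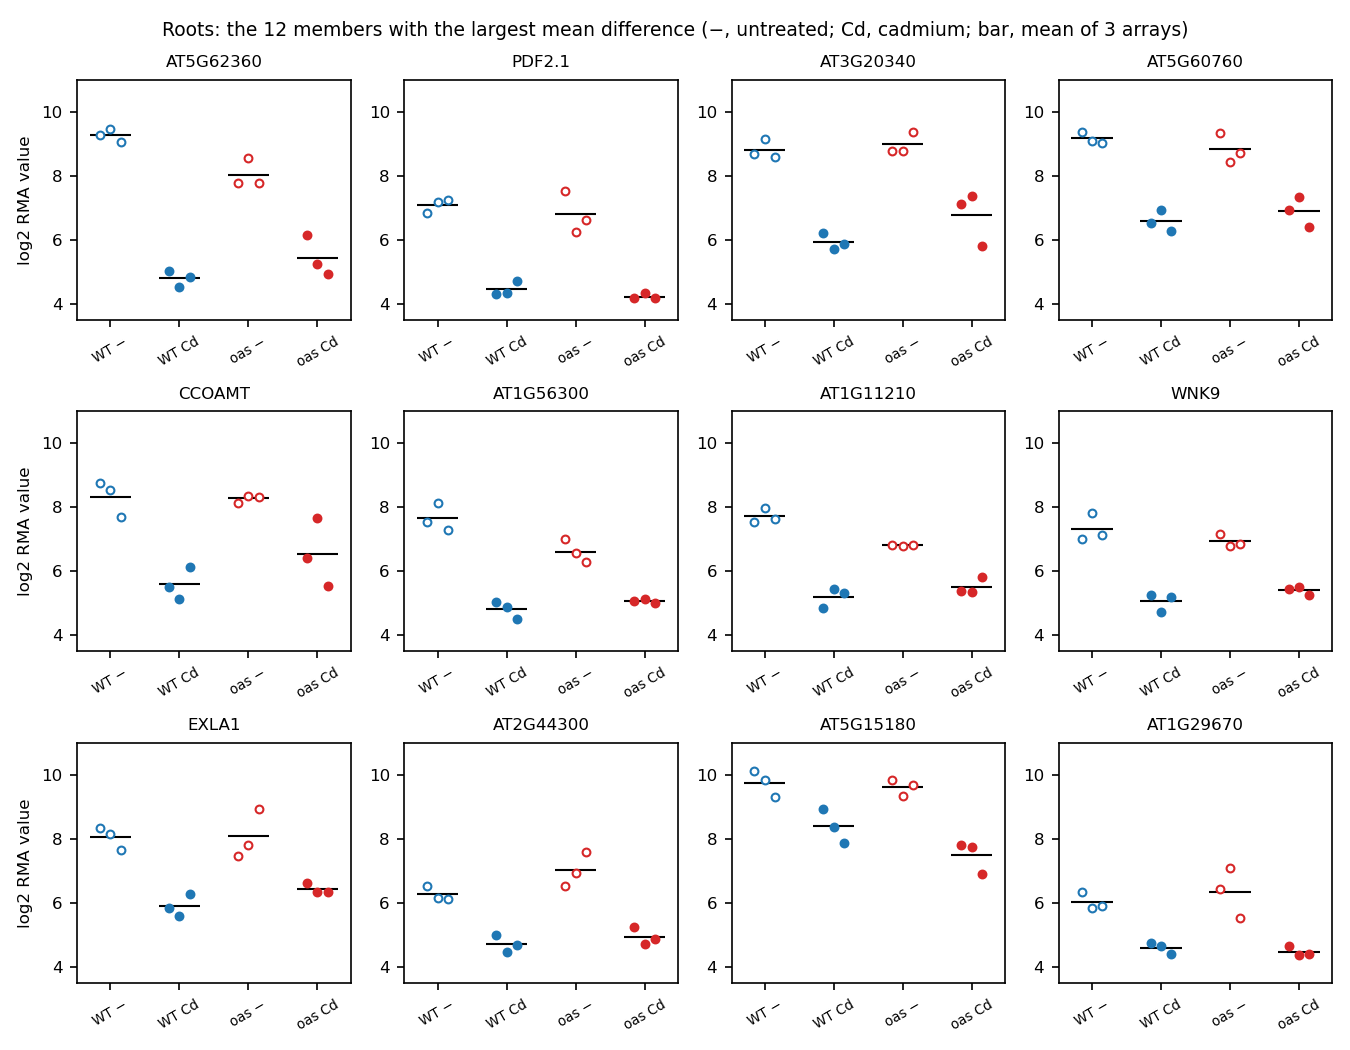
Log2 RMA values on the 12 root arrays for the 12 members with the largest mean difference, with open points for untreated and filled points for cadmium-treated roots (WT blue, oas-a1.1 red) and bars at the mean of 3 arrays. Filled points lie below open points of the same genotype in every panel, as the rule requires; AT5G62360, AT1G56300 and AT1G11210 start lower in untreated oas-a1.1 than in untreated WT.

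Among regulators, WNK9, a with-no-lysine protein kinase, read 7.01, 7.83 and 7.13 in untreated and 5.25, 4.72 and 5.21 in treated WT roots. In oas-a1.1 it read 7.17, 6.79 and 6.85 against 5.46, 5.5 and 5.25, for differences of -2.26 and -1.53. WNK7, the other named probe set of that family, had differences of -0.38 and -0.34 (adjusted p = 0.697 and 0.83). AT3G59350, a protein kinase gene, had differences of -1.93 and -1.10. The Dof zinc finger transcription factor genes AT1G29160 and AT2G34140 had -1.22 and -1.12 in WT and -1.47 and -0.89 in oas-a1.1. The 3 RING-domain genes AT5G42200, AT5G04460 and AT1G49210 lay between -1.55 and -0.86 in WT and between -1.07 and -0.87 in oas-a1.1. Over the 10 members of the group of kinases, transcription factors and RING proteins the median was -1.17 in WT and -1.06 in oas-a1.1.

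AT1G56300, a gene for a DnaJ-domain protein (a co-chaperone domain), read 7.56, 8.14 and 7.28 in untreated WT roots and 5.04, 4.89 and 4.50 in treated ones. In oas-a1.1 its readings were 7, 6.57 and 6.29 against 5.06, 5.13 and 5.01. Treated oas-a1.1 roots read 0.26 above treated WT roots, and the difference with cadmium was -2.85 in WT and -1.55 in oas-a1.1. AT1G11210 read 7.54, 7.98 and 7.65 against 4.85, 5.45 and 5.33 in WT roots and 6.82, 6.78 and 6.83 against 5.4, 5.35 and 5.81 in oas-a1.1. TUB9, a beta-tubulin, had differences of -1.23 and -1.07. It lies next to another member, AT4G20880, with no protein-coding gene between them in TAIR10.1. Of the 6 other named tubulin probe sets, 0 were called in WT roots, 1 lower and 1 higher in oas-a1.1 roots, 2 lower in WT shoots and 0 in oas-a1.1 shoots.

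The remaining large differences belong to AT3G20340 and AT5G60760. AT3G20340 read 8.68, 9.16 and 8.59 against 6.21, 5.71 and 5.87 in WT roots and 8.79, 8.79 and 9.37 against 7.13, 7.38 and 5.81 in oas-a1.1. AT5G60760 read 9.38, 9.10 and 9.04 against 6.52, 6.94 and 6.27 in WT roots and 9.33, 8.43 and 8.73 against 6.95, 7.33 and 6.41 in oas-a1.1. The mutant mean minus the WT mean was 0.17 for AT3G20340 and -0.34 for AT5G60760 in untreated roots, and 0.84 and 0.32 in treated roots. Among metabolic and transport genes, THIC, which makes the pyrimidine part of thiamin, had differences of -0.90 and -0.82, and AT1G61740, of the TauE/SafE transporter family, had -1.61 and -1.16. The 7 members of the metabolism and transport group had medians of -1.09 in WT and -0.94 in oas-a1.1.

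The difference was larger in WT for 38 members and larger in oas-a1.1 for 25, and the 2 differences lay within 0.2 of each other for 20. The excess of WT was largest for AT5G62360 (1.87), AT1G56300 (1.30), AT1G11210 (1.22) and CCOAMT (0.99). For AT5G62360, AT1G56300 and AT1G11210, untreated mutant roots read 1.23, 1.04 and 0.91 below untreated WT roots; CCOAMT was 0.05 below, and its treated mutant roots read 0.94 above treated WT roots. The excess of oas-a1.1 was largest for AT1G21440 (0.85), AT5G15180 (0.78), AT5G52790 (0.55) and AT2G44300 (0.53). AT1G21440 read 10.37, 10.22 and 10.45 against 9.46, 9.19 and 8.77 in WT roots and 10.23, 10.40 and 9.83 against 8.32, 7.97 and 7.99 in the mutant, where the treated level was 1.05 lower than in WT. These differences between genotypes share values with the rule and carry no test.

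Members nearest to the threshold inside it were AT4G20880 (-0.81 and -0.82), THIC (-0.90 and -0.82) and AT1G47670 (-0.82 and -1.24). Just outside it lay AT5G17850 (-1.15 and -0.797), MOL1 (-0.797 and -0.92) and TKL (-0.79 and -1.04). A further 11 probe sets had both differences at -0.8 or less but overlapping arrays. For 6 members, leaving out 1 root array moved the difference by more than 1.5 times. Without replicate 1 of untreated oas-a1.1 roots, where the 25S control read 6, the mutant difference went from -1.60 to -0.97 for AT1G73120, from -1.30 to -0.80 for AT1G44970, from -1.19 to -0.55 for AT3G12900, from -1.07 to -0.51 for AT1G09750 and from -0.87 to -0.51 for AT1G49210. Without replicate 3 of cadmium-treated WT roots, AT5G23380 went from -0.85 to -0.53 in WT. On root arrays with the 25S control at 7 or above, 11 members lay above -0.8 in a genotype, the highest at -0.42.

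For most members, untreated WT roots read above untreated WT shoots. In WT, all 3 untreated root arrays read above all 3 untreated shoot arrays for 44 members, against 25.1% of single-gene probe sets, and below them for 14, against 22%. The untreated root arrays also entered the rule, which favours genes with high readings there: 1 member lay below the median of all probe sets in untreated WT roots. This comparison is tilted by that choice and carries no test. The root excess was 6.2 for the peroxidase gene AT4G26010, 5.81 for AT5G15180, 5.42 for the dirigent-family gene AT4G13580, and 4.81 for AT5G60760. The shoot excess was 5.94 for THIC, 5.38 for AT4G32340 and 4.98 for AT1G29670. After cadmium, 28 members in WT roots still read above all untreated WT shoot arrays and 22 read below them. The treated root arrays also entered the rule, and the shares over all single-gene probe sets were not computed, so nothing is read from these counts.

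**Figure D3:**
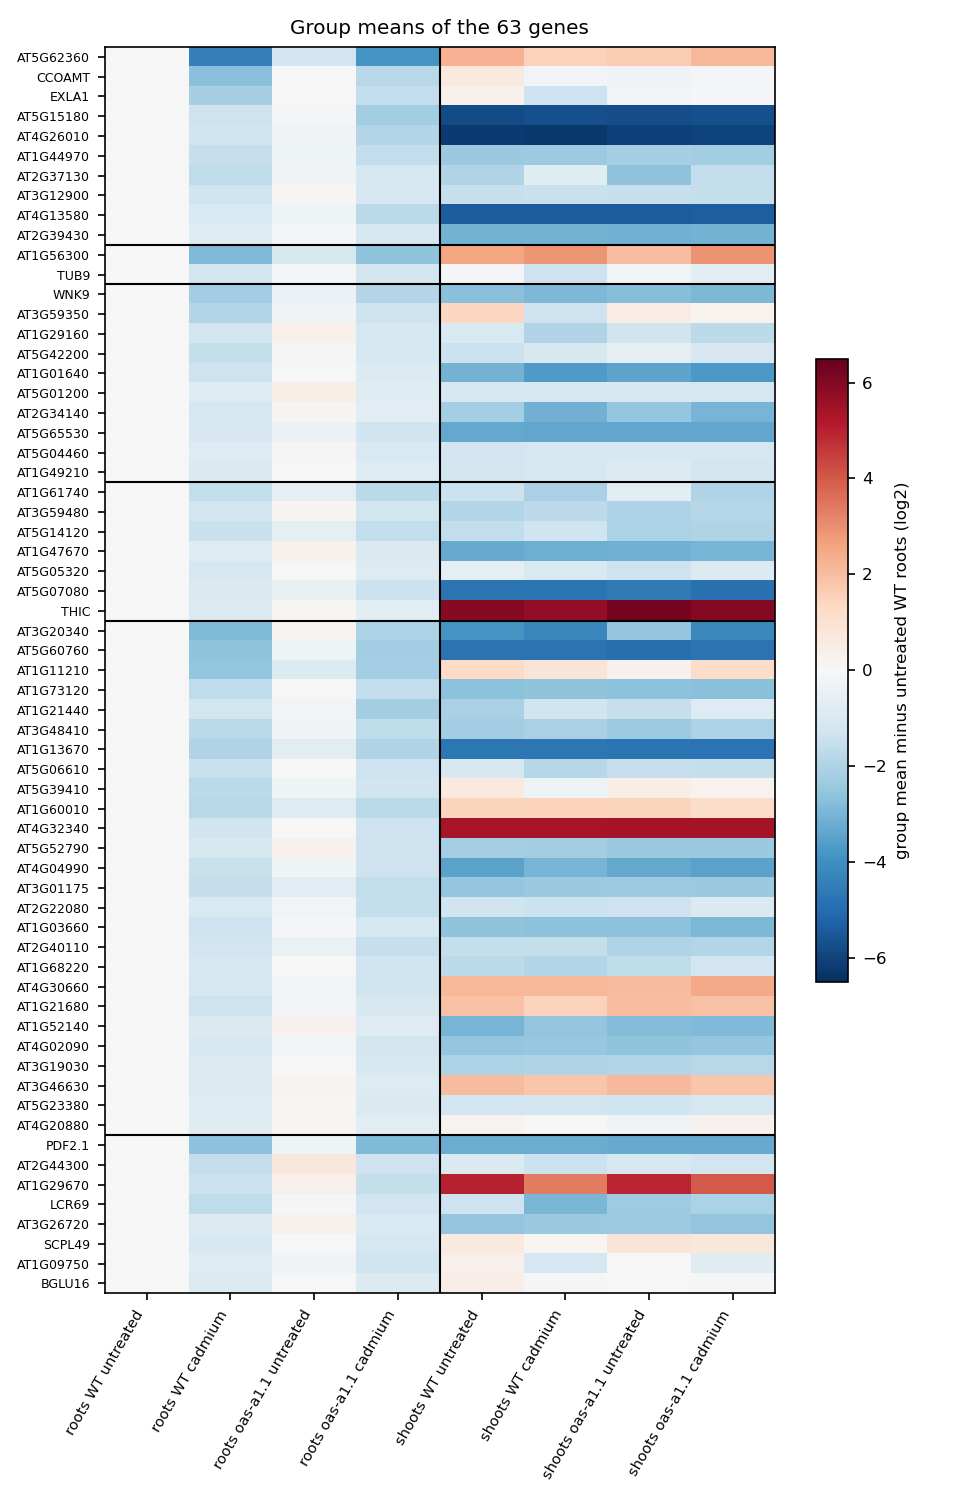
Group means of the 63 genes in the 8 groups (columns), as log2 difference from untreated WT roots, in rows sorted by family group (black lines) and by mean root difference. The treated WT root column is blue in every row by choice of the genes. The treated oas-a1.1 root column, also set against untreated WT roots, is blue in every row too. Shoot columns run from about -6 for AT4G26010 to about 6 for THIC.

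In shoots, the members' cadmium minus untreated differences had a median of -0.02 in WT and -0.03 in oas-a1.1, against 0.00 for all probe sets in both. Within 0.2 of 0 lay 31 members in WT, against 71.6% of single-gene probe sets, and 35 in oas-a1.1, against 75.0%. In untreated shoots 27 members in WT and 24 in oas-a1.1 read below the median of all probe sets, 5.42 and 5.39. How far such low readings can show a fall was not tested. In WT shoots 12 members were called lower and 0 higher (limma, adjusted p under 0.05), against 2.64% and 2.95% of all probe sets; 24 members had an unadjusted p under 0.05, against 17.6% of all probe sets. In oas-a1.1 shoots 3 were lower, against 1.01%, and 3 were higher, against 1.17%. There 18 members had an unadjusted p under 0.05, against 13.9%. These shares are over probe sets of any level. With only the upper 60% by mean shoot level, 14 members were called in WT, against 10.5% of those probe sets. In oas-a1.1 it was 6 members, against 4.38%. In the main fit 48 members passed in neither genotype, 9 in WT alone, 3 in oas-a1.1 alone and 3 in both. Direction was not asked for here: AT1G11210, which passed in both, was lower in WT and higher in oas-a1.1. The shares of all probe sets for these joint counts were not computed, so nothing is read from them. Organ and hours of treatment cannot be told apart, so responses of roots and shoots were not tested against each other. The 25S control read below 7 on 2 untreated and 1 treated WT shoot array and on 2 treated oas-a1.1 shoot arrays; with its level as a covariate 13 members were called in WT and 5 in oas-a1.1, while the share of all probe sets called went from 5.58% to 7.44% and from 2.18% to 1.43%.

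The kinase gene AT3G59350 had the largest change in WT shoots. It read 9.38, 9.58 and 9.21 in untreated and 6.53, 6.73 and 6.72 in treated WT shoots, and fell by 2.73 ± 0.21 (SE; limma adjusted p = 8.31e-05). In oas-a1.1 shoots it read 8.16, 8.37 and 8.94 untreated and 8.12, 7.91 and 8.61 treated, and these groups overlapped. The response differed between genotypes by 2.45 ± 0.30 (SE, limma adjusted p = 0.00788 for the interaction of genotype and cadmium). In untreated shoots the difference of oas-a1.1 from WT was -0.9 and did not pass (limma adjusted p = 0.0643). These contrasts share the untreated arrays.

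TUB9 fell by 1.25 ± 0.11 in WT shoots (limma adjusted p = 0.000177), from 9.57, 9.68 and 9.57 to 8.48, 8.22 and 8.36, without overlap. In oas-a1.1 it went from 9.47, 9.63 and 9.38 to 9.11, 9.14 and 8.81, a difference of -0.47 with adjusted p = 0.054. The Dof genes AT1G29160 and AT2G34140 fell by 0.97 and 0.89 in WT shoots (adjusted p = 0.00121 and 0.00254), and both read lower without overlap in oas-a1.1 shoots too, by values of -0.40 and -0.50 that did not pass. AT5G39410 fell by 0.96 (adjusted p = 0.00584).

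AT1G29670 fell in the shoots of both genotypes. It read 11.01, 10.98 and 11 in untreated WT shoots and 9.74, 8.99 and 9.40 in treated ones, and fell by 1.62 ± 0.20 (limma adjusted p = 0.00132). In oas-a1.1 it read 10.59, 11.21 and 11.05 against 9.78, 10.29 and 9.99, and fell by 0.93 ± 0.20 (adjusted p = 0.0406). That call was lost in 8 of the 12 fits that left out 1 array and when the 25S reading was added to the model. It was also lost with replicate number in the model, with all 24 arrays in one model and with only the arrays of the compared groups. AT1G61740 likewise fell in both, from 9.43, 9.44 and 9.40 to 8.69, 8.67 and 8.81 in WT (a change of -0.70 ± 0.09, adjusted p = 0.00138). In oas-a1.1 it fell by 1.26 ± 0.09 (adjusted p = 0.000104), from 10.10, 10.22 and 10.15 to 9.04, 8.73 and 8.93.

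LCR69, AT5G06610, AT1G01640, SCPL49 and AT1G11210 were also called lower in WT shoots, and each lost its call when at least 4 of the 12 arrays were left out one at a time. LCR69 fell by 1.62 ± 0.34 (limma adjusted p = 0.019), from 8.99, 8.81 and 9.19 to 8.23, 6.80 and 7.09, and read 8.27, 7.74 and 8.04 against 7.66, 8.51 and 8.56 in oas-a1.1, where the groups overlapped. The other 4 changes lay between -0.80 and -0.45. EXLA1 read 8.72, 8.97 and 7.36 in untreated WT shoots and 6.95, 7.10 and 6.04 in treated ones, a difference of -1.65 that did not pass (adjusted p = 0.0574). PDF2.1, WNK9 and the peroxidase genes AT5G15180 and AT4G26010 read below 5 on all shoot arrays.

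**Figure D4:**
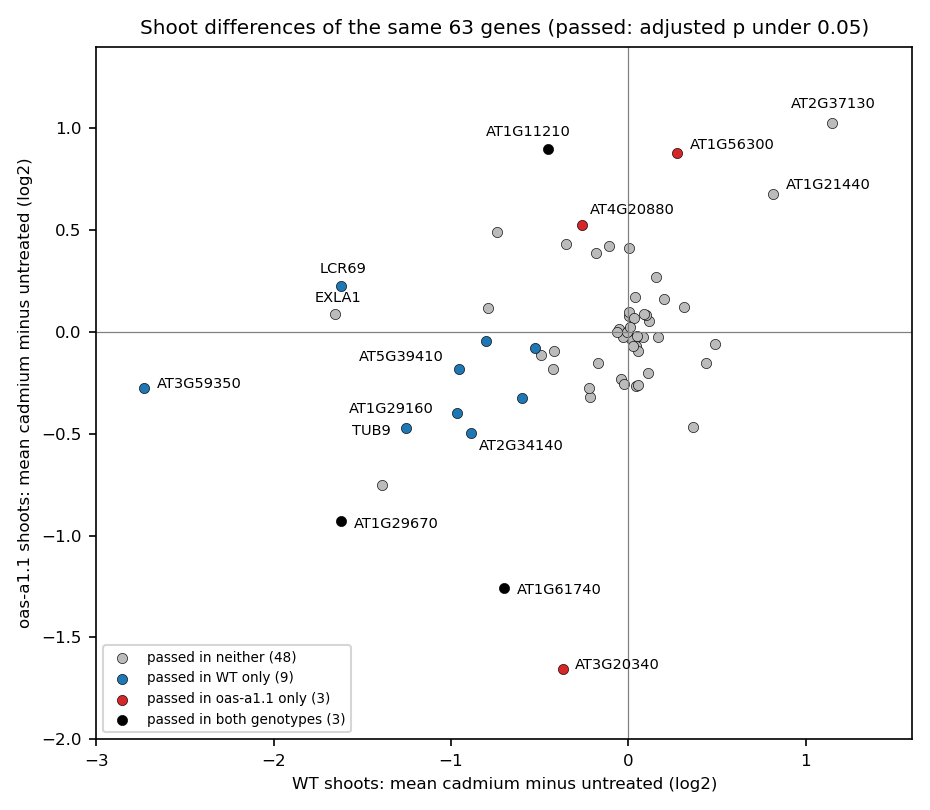
Mean cadmium minus untreated difference (log2) of the 63 genes in WT shoots (x axis) and oas-a1.1 shoots (y axis), coloured by whether the limma test passed in WT, in oas-a1.1, in both or in neither. Many points lie near the origin. AT3G59350 stands far left at -2.73 in WT, AT3G20340 lies lowest at -1.66 in oas-a1.1, and AT1G11210 is lower in WT and higher in oas-a1.1.

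AT1G11210 changed in opposite directions in the shoots of the genotypes. It read 9.08, 8.99 and 8.94 in untreated and 8.50, 8.57 and 8.58 in treated WT shoots, and fell by 0.45 ± 0.12 (limma adjusted p = 0.0468) and kept that call in 3 of the 12 fits with 1 array left out. In oas-a1.1 it rose by 0.90 ± 0.12 (adjusted p = 0.00328), from 8.16, 7.95 and 7.89 to 8.91, 9.13 and 8.66. The interaction was 1.35 ± 0.17 (adjusted p = 0.00788). Untreated mutant shoots were 1.00 ± 0.12 below untreated WT shoots (adjusted p = 0.00379), and these contrasts share the untreated arrays.

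AT3G20340 read 4.97, 4.78 and 5.05 in untreated WT shoots and 6.14, 5.93 and 6.77 in untreated oas-a1.1 shoots, higher in the mutant by 1.35 ± 0.18 (limma adjusted p = 0.00816). With cadmium it read 4.45, 4.53 and 4.71 in WT and 4.65, 4.68 and 4.54 in oas-a1.1, where it fell by 1.66 ± 0.18 (adjusted p = 0.00134). The difference between the genotypes' responses was -1.29 ± 0.25 and did not pass (adjusted p = 0.0561). AT1G61740 was also higher in untreated mutant shoots, by 0.73 ± 0.09 (adjusted p = 0.00472). Both comparisons use the same untreated mutant arrays as the cadmium response.

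AT1G56300 rose by 0.88 ± 0.15 in oas-a1.1 shoots (limma adjusted p = 0.012), from 9.60, 9.74 and 9.72 to 10.19, 10.86 and 10.65. In WT shoots it read 10.26, 10.20 and 10.23 untreated and 10.32, 10.66 and 10.54 treated. It differed there by 0.28, which did not pass (limma adjusted p = 0.395). Its treated shoot arrays read above the untreated ones without overlap in both genotypes, which held for 1 member and for 1.83% of all single-gene probe sets. The opposite, treated below untreated without overlap in both, held for 7 members and for 1.61%. AT4G20880 rose by 0.53 ± 0.11 in oas-a1.1 shoots (limma adjusted p = 0.032). That call was lost in 5 of the 12 fits with 1 array left out and with the 25S covariate. It was also lost with all 24 arrays in one model, with only the arrays of the compared groups and with a trended and robust limma prior. The peroxidase gene AT2G37130 had differences of 1.15 in WT shoots (adjusted p = 0.0524) and 1.03 in oas-a1.1 shoots (adjusted p = 0.129), and AT1G21440 of 0.82 and 0.68 (adjusted p = 0.0761 and 0.205); none passed.

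**Figure D5:**
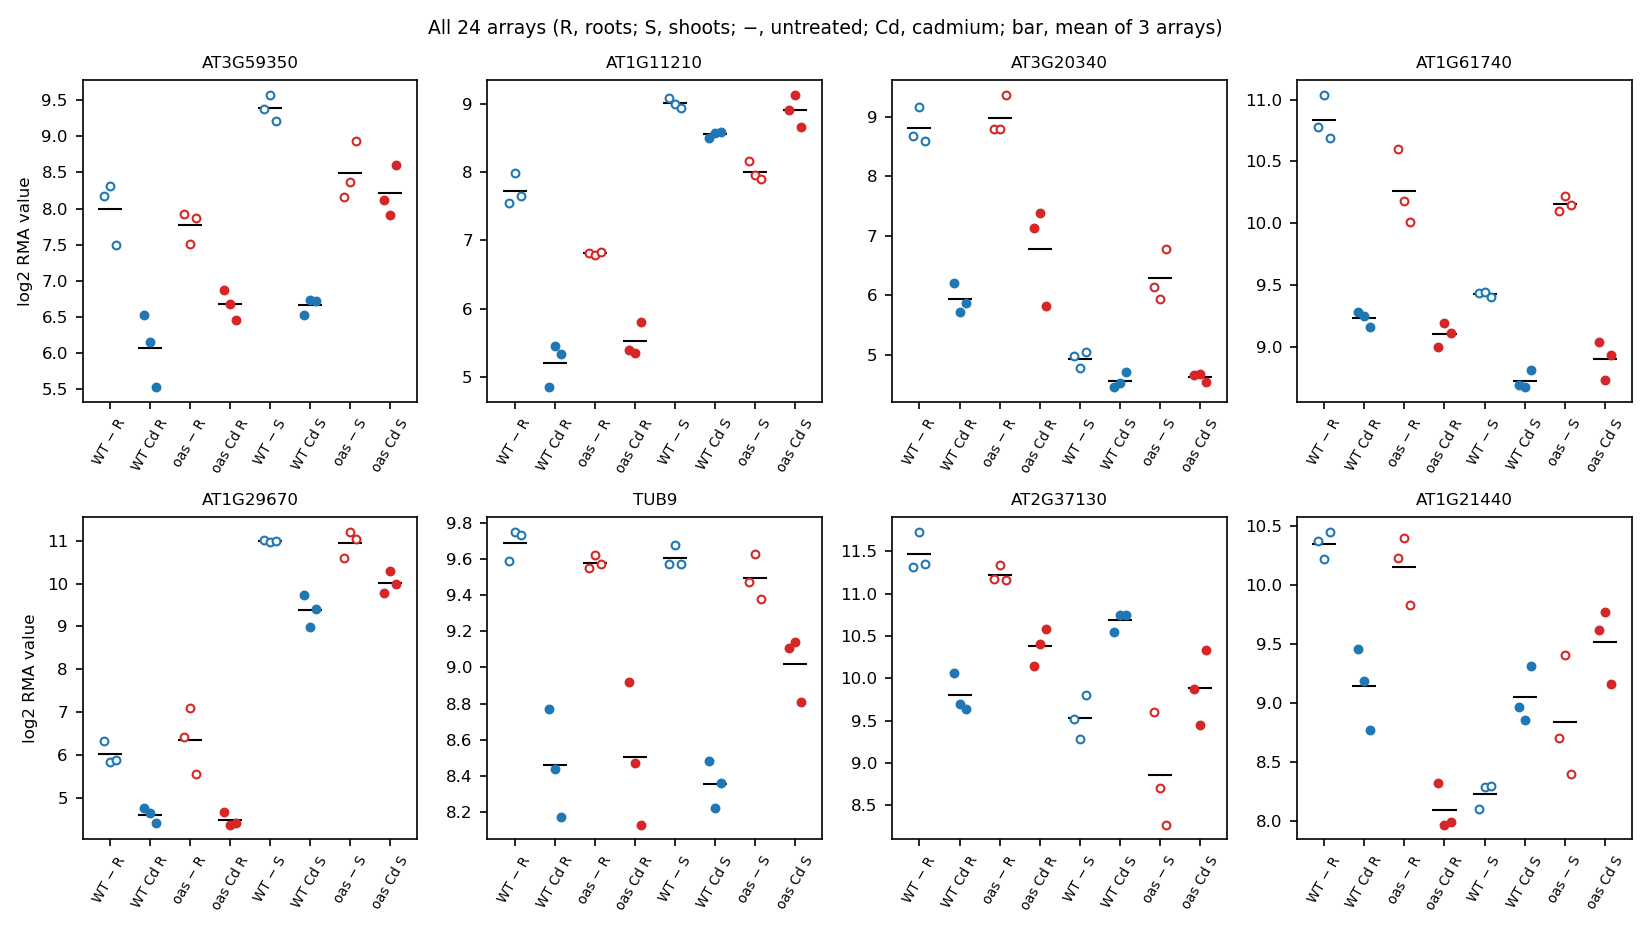
Log2 RMA values of 8 members on all 24 arrays, by organ (R, roots; S, shoots), genotype (WT blue, oas-a1.1 red) and treatment (open, untreated; filled, cadmium), with bars at the mean of 3 arrays. AT3G59350 is low in treated WT shoots but not in treated oas-a1.1 shoots. AT2G37130 is lower with cadmium in roots by choice of the genes. Its shoot means are higher with cadmium, but the shoot tests did not pass and the oas-a1.1 shoot arrays overlap.

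For genotype alone, 4 members passed in untreated shoots. AT1G11210 and AT5G05320 were lower in oas-a1.1 (AT5G05320 by a difference of -0.68 ± 0.14, limma adjusted p = 0.0378, a call lost in 7 of the 12 fits with 1 array left out), against 0.813% of all probe sets, and AT3G20340 and AT1G61740 were higher, against 0.642%. In roots, averaged over untreated and cadmium-treated arrays, 0 members passed in limma, against 0.193% of probe sets lower and 0.532% higher in the mutant; 9 members had an unadjusted p under 0.05, and 9.27% of all probe sets did. AT1G21440 came nearest, at -0.62 ± 0.14 (adjusted p = 0.0739), and was called in 6 of the other ways of fitting and without 1 array. The interaction in shoots called 0 members lower, against 0.237%, and 2 higher, against 0.207%.

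The families of some members hold other genes on the array. The members are left out of the counts that follow, since their root calls were fixed by the choice. The counts cover listed probe sets, matched by symbol or by a set locus tag. Family genes that carry only a locus tag can therefore be missing. Other class III peroxidase genes were not counted here. Of the 17 other listed expansin and expansin-like probe sets, 0 were called in WT roots. In oas-a1.1 roots 2 were called lower, EXPB1 at -1.85 and EXPA15 at -1.06. Of the 20 other listed beta-glucosidase probe sets, 1 was called lower and 3 higher in WT roots, and 0 lower and 2 higher in oas-a1.1 roots. Of the 6 other listed probe sets of pectin methylesterases and their inhibitors, 0 were called in roots of either genotype. Among them, AT5G62350 had differences of -0.27 and 0.07. Of the 5 other listed serine carboxypeptidase-like probe sets, 0 were called in roots of either genotype.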

How the data were processed

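The authors deposited log2 expression values made by RMA (background correction, quantile normalization, summary per probe set), per the submitters' processing notes, which name RMA and affy without a version. Values were used as deposited: 24 columns were matched to labelled samples. The 64 control probe sets were left out and 22746 tested, with no filter on level; 13513 list a single gene, 503 several and 8730 none. Of the 63 members, 62 matched RefSeq's gene table of TAIR10.1, used for names and neighbours only.

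Each organ's 12 arrays were fitted with limma 3.58.1 in R 4.3.3 (a mean per group, empirical Bayes moderation). Tests were two-sided, adjusted by Benjamini-Hochberg over all probe sets, with a threshold of 0.05; errors are standard errors of the fit, and the number of arrays limits precision. The fit was tested on simulated data. Members, lists and tests were chosen with earlier results of these data known, and lists were revised by symbol once names were seen. Named genes were the 12 largest root differences, members nearest the threshold, those differing most between genotypes, those called in shoots or for genotype, and up to 4 per family. Other genes were named after their values were seen. A planned motif search was not run.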

Additional observations from a re-analysis of the deposited data

Results flagged for a closer look

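The shoot response to cadmium differed between genotypes by the limma interaction test for AT3G59350, by 2.45 (oas-a1.1 minus WT, log2), and for AT1G11210, by 1.35; both held without each of the 12 shoot arrays in turn. AT1G56300, whose lower root readings are part of how it was chosen, read higher on all treated shoot arrays of both genotypes. This held for 1 of 63 members, near the 1.83% of all single-gene probe sets. Its shoot difference was 0.88 in oas-a1.1 (limma adjusted p = 0.012) and 0.28 in WT, which did not pass (limma adjusted p = 0.395). The difference between organs was not tested, and hours of treatment differ between organs.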

How the results depend on the processing

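The rule gave 38 genes at a threshold of -1 and 119 at -0.6, and 55 to 85 when each root array was left out in turn; the other settings gave 61 to 88. In WT shoots the 12 calls became 20 with array weights and 7 to 14 without single arrays, lowest without replicates 1 or 2 of untreated WT; the share of all probe sets called went from 5.58% to 12.9%, and to 2.72% and 2.69%. In oas-a1.1 shoots the 6 calls became 3 with the arrays of the contrast only, 11 with array weights (2.18% to 5.54% of all probe sets) and 4 to 6 without single arrays. In untreated shoots the 4 genotype calls became 2 with the arrays of the contrast only, 9 with array weights (1.46% to 8.13%) and 3 to 7 without single arrays, highest without replicate 3 of untreated WT. For the shoot interaction the 2 calls became 5 with arrays centred on their medians, 10 with array weights (0.444% to 5.17%), and 2 to 6 without single arrays, with 4 without replicate 3 of treated oas-a1.1 and 6 without replicate 3 of untreated WT. The averaged root genotype effect had 0 calls, and 1 with centring, quantile normalization again or the 25S covariate (AT1G21440 each time), 2 with all 24 arrays or array weights (AT1G21440 and AT1G61740), and 0 to 1 without single arrays. With replicate number as a block, this count was 2 (AT1G21440 and AT5G07080) and the shoot interaction count was 5. Correlations of same-numbered arrays between root groups were 0.405 to 0.639 for replicate 1, -0.154 to 0.229 for replicate 2 and 0.218 to 0.44 for replicate 3. In shoots they ran from -0.251 to 0.487. The numbers were not taken as pairs in the main fit, although root arrays of replicates 1 and 3 varied together across groups. No other count moved by over 1.5 times. Only arrays with the 25S control at or above 7, a boundary chosen after seeing the data, gave 0 calls in each shoot comparison, where some groups keep a single array, so this says nothing about stability. The arrays of the contrast are those of the whole organ for the averaged root effect and the interaction. Over 526 refitted values of called members, 0 reversed and 88 lost their call. The cause was not tested. These totals include the fits on arrays with the 25S control at or above 7, where every call was lost, so those losses say nothing about stability.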
